A study of Mus musculus with 8 samples.

Results

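The genes for the ionotropic GABA-A receptor alpha subunits Gabra2, Gabra3, Gabra4, Gabra5 and Gabra6 and for the metabotropic GABA-B receptor subunits Gabbr1 and Gabbr2 were examined in RNA-seq libraries of whole mouse brain tissue. These 7 genes were chosen by symbol among the 24343 genes of the deposited table, in which they are represented by 8 transcripts. The brains came from 3 C57BL/6NCrl mice that were 56 to 62 days old, with no treatment and no genetic modification stated, so that the samples form a single condition and the mice are the replicates. Mouse 1 and mouse 2 have 3 libraries each and mouse 3 has 2, and what separates the libraries of a mouse was not stated. Values are FPKM (fragments per kilobase of transcript scaled to the mapped fragments of the library), a level per length that can be compared between genes. A gene's level is the sum over its transcripts, averaged first within each mouse and then across the 3 mice, with the SD between mice.

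GABA is the main inhibitory transmitter of the adult brain. GABA-A receptors are chloride channels assembled from several subunits, most often alpha, beta and gamma or delta, and the alpha subunit shapes GABA affinity, location on the neuron and drug binding, because the benzodiazepine pocket lies between an alpha and a gamma subunit. GABA-B receptors are obligate pairs of GABBR1, which binds GABA, and GABBR2, which couples to the G protein and brings GABBR1 to the cell surface. They open inwardly rectifying potassium channels and inhibit presynaptic calcium channels.

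A single codon separates alpha subunits that bind classical benzodiazepines, which carry a histidine there, from those that do not, which carry an arginine. The coding sequence around it is shown because it divides the 5 alpha genes into the classes whose levels are compared further on. Each stretch below holds 33 bases of a GENCODE M21 transcript (mouse build GRCm38, equivalent to mm10) matched to the deposited RefSeq transcript, lies within 1 coding exon on the minus strand and is written from 5′ to 3′ with the codon in capitals.
Gabra2: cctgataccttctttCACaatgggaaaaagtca
Gabra3: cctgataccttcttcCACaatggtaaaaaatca
Gabra5: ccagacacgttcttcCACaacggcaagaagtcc
Gabra4: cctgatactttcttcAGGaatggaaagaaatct
Gabra6: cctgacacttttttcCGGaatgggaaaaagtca

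The codon CAC encodes histidine in Gabra2 (codon 129 of 451), Gabra3 (codon 154 of 492) and Gabra5 (codon 136 of 463). Arginine is encoded by AGG in Gabra4 (codon 135 of 552) and by CGG in Gabra6 (codon 119 of 453). These stretches lie in exon 5 of 10 of Gabra2 (chr5:71014490-71014522), exon 5 of 10 of Gabra3 (chrX:72501153-72501185), exon 5 of 10 of Gabra5 (chr7:57488876-57488908), exon 4 of 9 of Gabra4 (chr5:71641137-71641169) and exon 4 of 9 of Gabra6 (chr11:42317632-42317664). Between pairs of genes, 23 to 30 of the 33 bases were identical, with the most between Gabra2 and Gabra3 and the fewest between Gabra4 and Gabra5.

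The libraries of mouse 3 stood apart from the others, and this touches each comparison between mice below. Bases read on transcripts ranged from 1.31 to 2.02 gigabases per library, with 1.73 and 1.79 in mouse 3. Summed FPKM was 384885 and 409889 in mouse 3 against 295541 to 345572 in the other libraries. Deviations of genes from their mean rose with transcript length in mice 1 and 2 (Spearman's rho across genes from 0.18 to 0.50) and fell with it in mouse 3 (-0.36 and -0.57). Of 11 markers of astrocytes, oligodendrocytes, microglia and endothelium, all 11 had a higher mean in mouse 3 and 6 passed the test between mice described below, all 6 higher, against 15.0% of all genes that passed with mouse 3 higher. With each library scaled to the same sum, only Mbp of the 11 passed, and P2ry12 had a lower mean in mouse 3. The summed level of 3 oligodendrocyte markers was 1848 to 2033 FPKM in mice 1 and 2 and 3598 and 4485 FPKM in mouse 3. Of 3 markers of neurons, Rbfox3 and Syt1 passed the same test and were lower in mouse 3, against 11.9% of all genes. Snap25 did not pass. With each library scaled to the same sum, all 3 passed and were lower in mouse 3, against 37.5% of all genes. Their summed levels were 1352 to 1466 FPKM in mice 1 and 2 and 1152 and 1281 FPKM in mouse 3. Every one of these markers had a mean of at least 1 FPKM. In whole-brain RNA, fewer cells of a type and less RNA per cell cannot be told apart, and the part that depth, transcript length and cell makeup have in the differences below was not tested.

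Gabbr1 (NM_019439, chr17:37045966-37074305) had the highest level of the 7 genes, 124.1 ± 2.84 FPKM (SD, n = 3 mice), higher than 96.6% of the 13001 genes whose mean reached 1 FPKM. It was measured at 125.4, 125.4 and 126.2 FPKM in mouse 1, at 125.8, 126.0 and 125.6 FPKM in mouse 2 and at 125.4 and 116.3 FPKM in mouse 3. Library 2 of mouse 3 was the low one, and the other 7 libraries lay within 1 FPKM of each other. Its coefficient of variation (CV) between mice, 2.29%, compares with a median of 12.3% over the 13001 genes.

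Gabbr2 (NM_001081141, chr4:46663898-46991714) came next at 46.5 ± 9.56 FPKM. It was measured at 52.6, 49.3 and 53.5 FPKM in mouse 1, at 51.4, 54.5 and 50.8 FPKM in mouse 2 and at 40.4 and 30.6 FPKM in mouse 3. Both libraries of mouse 3 lay below the other 6, and they also differed from each other by more than the other 6 did. Its CV of 20.6% was the highest of the 7 genes.

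The Gabbr1 level was 2.76 ± 0.598 times the Gabbr2 level over the 3 mice. The ratio was 2.31 to 2.55 in the 6 libraries of mice 1 and 2, 3.11 in library 1 of mouse 3 and 3.80 in library 2. The transcript of the subunit that binds GABA was therefore the more abundant in all 8 libraries, and the excess was larger in mouse 3, where Gabbr2 was low. In the deposited table Gabbr1 has this 1 transcript, so the receptor's promoter variants were not told apart.

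**Figure D1:**
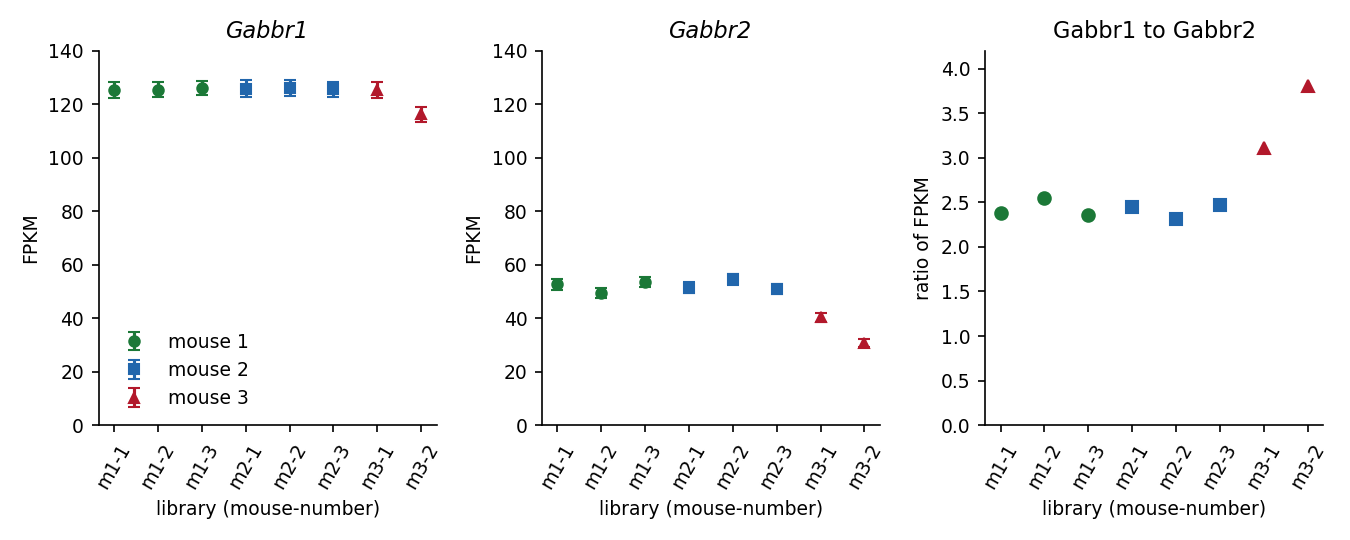
FPKM of Gabbr1 (left) and Gabbr2 (middle) in each of the 8 libraries, with the deposited lower and upper confidence bounds as bars, and the ratio of the FPKM values (right). Points of mouse 1 are green circles, of mouse 2 blue squares and of mouse 3 red triangles; Gabbr2 was 40.4 and 30.6 FPKM in mouse 3 and at least 49.3 FPKM elsewhere.

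Among the alpha genes of the histidine class, Gabra2 (NM_008066, chr5:70961057-71095849), widely expressed in forebrain, had the highest level at 37.4 ± 2.57 FPKM. It was measured at 38.0, 40.7 and 38.3 FPKM in mouse 1, at 38.8, 38.8 and 38.7 FPKM in mouse 2 and at 33.0 and 35.8 FPKM in mouse 3. Both libraries of mouse 3 were below the other 6. Gabra3 (NM_008067, chrX:72432676-72656246), known from the thalamic reticular nucleus and monoaminergic neurons, had 31.0 ± 2.51 FPKM. Its values were 29.6, 30.9 and 31.5 FPKM in mouse 1, 27.8, 29.5 and 28.7 FPKM in mouse 2 and 31.2 and 36.1 FPKM in mouse 3. Library 2 of mouse 3 was the high one, while library 1 lay within the range of mouse 1. Gabra5 (NM_176942, chr7:57407669-57510009), known for extrasynaptic receptors of hippocampal pyramidal cells, had the lowest level at 20.0 ± 0.932 FPKM, still above that of 74.2% of the genes tested. It was measured at 19.4, 20.4 and 19.5 FPKM in mouse 1, at 19.3, 18.2 and 20.1 FPKM in mouse 2 and at 20.2 and 21.9 FPKM in mouse 3. The mice overlapped, and its CV of 4.66% was the lowest of the alpha genes.

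In the arginine class, Gabra6 (chr11:42306437-42321072), a subunit of cerebellar granule cells, had 33.8 ± 3.94 FPKM. It was measured at 30.8, 33.9 and 30.0 FPKM in mouse 1, at 32.6, 31.5 and 30.7 FPKM in mouse 2 and at 31.8 and 45.0 FPKM in mouse 3. Library 2 of mouse 3 alone was high. In that library the summed level of 5 granule cell markers was 134 FPKM, against 120 to 124 FPKM in mice 1 and 2 and 108 FPKM in library 1 of mouse 3. The markers did not move together: Cbln3 (49.0 FPKM) and Cbln1 (61.6 FPKM) had their highest values there, Fat2 had its lowest (5.08 FPKM), and Neurod1, at 17.7 FPKM, lay below the 20.7 to 29.9 FPKM of mice 1 and 2. Gabra4 (NM_010251, chr5:71569734-71658308), which joins delta in extrasynaptic receptors of thalamus, striatum and dentate gyrus, had 28.4 ± 2.00 FPKM. Its values were 26.8, 28.7 and 27.3 FPKM in mouse 1, 25.6, 26.8 and 28.3 FPKM in mouse 2 and 27.2 and 34.2 FPKM in mouse 3. Here too library 2 of mouse 3 was high and library 1 was not.

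**Figure D2:**
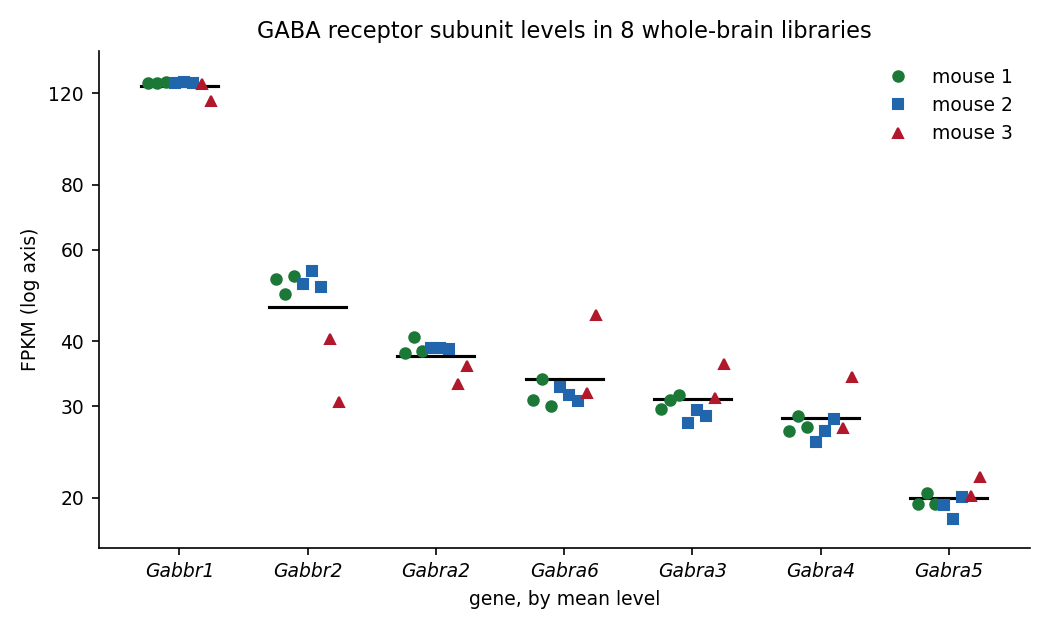
FPKM (log axis) of the 7 genes in the 8 libraries, ordered by mean level. Each point is a library (mouse 1 green circles, mouse 2 blue squares, mouse 3 red triangles) and each black line the mean over the 3 mice, from 124.1 FPKM for Gabbr1 to 20.0 FPKM for Gabra5.

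The order of the levels was Gabbr1, Gabbr2, Gabra2, Gabra6, Gabra3, Gabra4 and Gabra5. Both ends of it held in every library, with Gabbr1 above Gabbr2 and Gabra4 above Gabra5 (ratio 1.42 ± 0.0321) in 8 of 8. Gabra3 was also above Gabra4 in 8 of 8 libraries, by a ratio of 1.09 ± 0.0237 that fell to 1.01 in 1 library. The middle of the order was less firm. Gabbr2 exceeded Gabra2 in 7 of 8 libraries, by 1.24 ± 0.174, and in library 2 of mouse 3 the ratio was 0.854. Gabra2 exceeded Gabra6 in 7 of 8 libraries, but the mean ratio of mouse 3 was 0.917 because its library 2 had 0.797, so these neighbours did not differ beyond the spread between mice. Gabra6 exceeded Gabra3 in 7 of 8 libraries, by 1.09 ± 0.0530, which reverses to 0.941 where the higher transcript of Gabra6 stands for the gene.

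Together the 5 alpha genes summed to 143 to 155 FPKM in 7 libraries and to 173 FPKM in library 2 of mouse 3. The histidine class, Gabra2, Gabra3 and Gabra5, held 58.8 ± 1.98% of that sum (SD, n = 3 mice). Its share was 58.8 to 60.9% in 7 libraries and 54.2% in library 2 of mouse 3. Gabra2 had the largest share of a single gene, 24.9 ± 2.67%, with 26.1 to 26.9% in mice 1 and 2 and 23.1 and 20.7% in mouse 3. Gabra6 followed with 22.4 ± 1.53%, Gabra3 with 20.6 ± 0.786%, Gabra4 with 18.8 ± 0.460% and Gabra5 with 13.3 ± 0.0652%. The Gabra5 share was thus the steadiest of the 5 between mice, although it ranged from 12.6 to 14.1% over libraries.

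**Figure D3:**
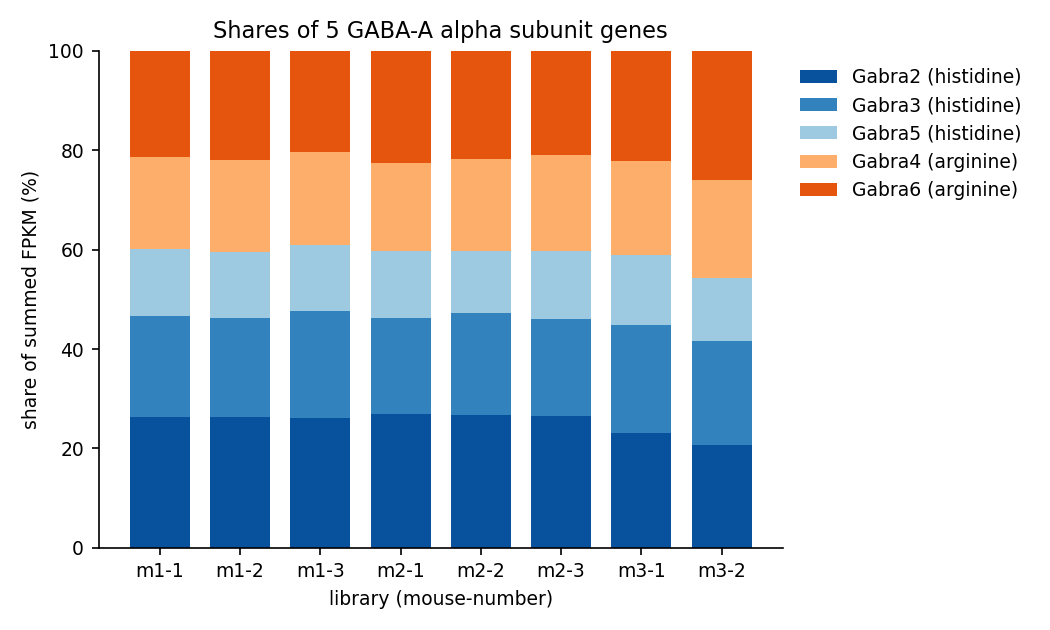
Share (%) of the summed FPKM of 5 GABA-A alpha genes held by each gene in the 8 libraries, with the histidine class in blue and the arginine class in orange. The blue shares add up to 54.2% in library 2 of mouse 3 and to 58.8% or more elsewhere.

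Gabra6 was the only one of the 7 genes with more than 1 transcript in the table. The GENCODE sequences of these transcripts differ by 30 coding bases of exon 4 (chr11:42317749-42317778), which NM_001099641 holds and NM_008068 lacks. They make up 10 codons from codon 76 on and lie before the arginine codon in the extracellular part. The stretch is shown in capitals between 12 bases of flank on each side, on the minus strand, because it is the main difference between the transcripts.
Gabra6 exon 4: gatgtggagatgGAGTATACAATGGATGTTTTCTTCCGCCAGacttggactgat

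The longer transcript was estimated at 24.9 to 38.9 FPKM and the shorter at 0.963 to 6.98 FPKM. The shorter one held 13.6 ± 3.12% of the Gabra6 level (SD, n = 3 mice) and was the minor transcript in all 8 libraries. Its share was 14.5, 2.84 and 14.5% in mouse 1, 21.4, 10.02 and 19.0% in mouse 2 and 13.1 and 13.5% in mouse 3. Within mouse 1 and within mouse 2 the libraries thus differed by more than the means of the 3 mice did. In library 2 of mouse 1 the deposited bounds were 0.471 to 1.46 FPKM, which do not overlap the 3.38 to 5.54 FPKM of library 1. Both transcripts were higher in library 2 of mouse 3 than in its library 1, at 38.9 against 27.7 FPKM and at 6.07 against 4.16 FPKM. Only the longer one lay beyond all others, with bounds of 36.0 to 41.7 FPKM against an upper bound of at most 35.3 FPKM in the other 7 libraries. The level and the share of the shorter transcript in library 2 of mouse 3 lay within the range of the others.

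**Figure D4:**
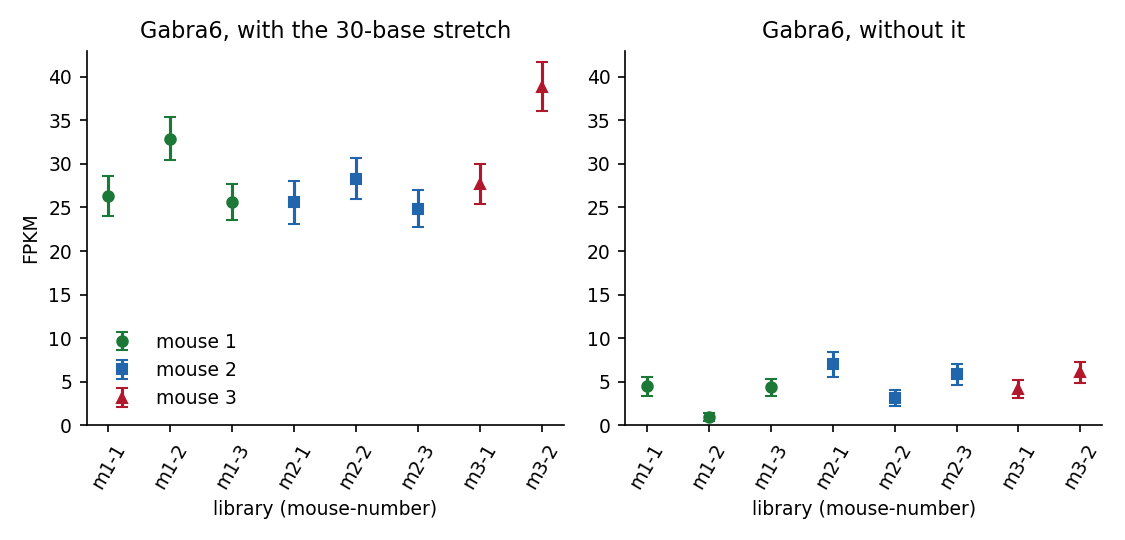
FPKM of the Gabra6 transcript with the 30-base stretch (NM_001099641, left) and without it (NM_008068, right) in each library, with the deposited lower and upper confidence bounds as bars. Colours and symbols mark the mice; the longer transcript ranged from 24.9 to 38.9 FPKM and the shorter from 0.963 to 6.98 FPKM.

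To compare the individual mice, a moderated F-test (limma, on log2(FPKM + 1)) was run over the 13001 genes, and p-values adjusted by Benjamini-Hochberg were read at a threshold of 0.05. The libraries of a mouse entered as its repeats, so the test compares these 3 animals and no condition. Of all genes, 26.9% passed, and 1 of the 7 receptor genes did. That gene was Gabbr2, lower in mouse 3 than in the mean of mice 1 and 2 by -0.55 ± 0.10 (log2, SE; limma adjusted p = 0.0143). For the direction, 11.9% of all genes passed with mouse 3 lower and 15.0% with mouse 3 higher. With a minimum mean of 5 FPKM, 37.8% of 8786 genes passed, and again Gabbr2 alone of the 7. Without library 2 of mouse 3 the Gabbr2 difference was -0.36 and did not pass (limma adjusted p = 0.0830), while 2.77% of all genes still passed.

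The other 6 genes did not pass the limma test. In the limma fit the differences of mouse 3 were 0.26 ± 0.12 for Gabra6 (adjusted p = 0.260), 0.17 ± 0.07 for Gabra3 (adjusted p = 0.162), 0.16 ± 0.09 for Gabra4 (adjusted p = 0.391) and 0.10 ± 0.07 for Gabra5 (adjusted p = 0.442). By limma they were -0.17 ± 0.07 for Gabra2 (adjusted p = 0.168) and -0.06 ± 0.07 for Gabbr1 (adjusted p = 0.772). The differences of Gabra6, Gabra3 and Gabra4 rested on library 2 of mouse 3. Without it they were 0.013 for Gabra6, 0.07 for Gabra3 and -0.0040 for Gabra4, and without library 1 of mouse 3 they were 0.50, 0.28 and 0.32 and passed the limma test (adjusted p = 0.0142, 0.0381 and 0.0474), where 30.2% of all genes passed. Both libraries of mouse 3 lay below all others for Gabbr1, Gabbr2 and Gabra2, a pattern seen in 21.7% of all genes. For Gabbr1 this was close to a tie. Library 1 of mouse 3 had 125.38 FPKM and library 2 of mouse 1 had 125.42 FPKM. None of the 7 had both libraries of mouse 3 above all others, which 26.5% of all genes had. Scaling each library to the same sum (the TPM scale) moved the median difference of all genes from 0.02 to -0.26, and the share of genes lower in mouse 3 among those that passed from 44.1% to 85.1%. Under TPM 44.0% of all genes passed, 37.5% with mouse 3 lower, and 3 of the 7 receptor genes did, all lower in mouse 3, namely Gabbr2 at -0.86, Gabra2 at -0.47 and Gabbr1 at -0.36. Gabra3, Gabra4, Gabra5 and Gabra6, which did not pass on either scale, changed sign under TPM, to between -0.19 and -0.04, and so stayed above the median of all genes on both scales.

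**Figure D5:**
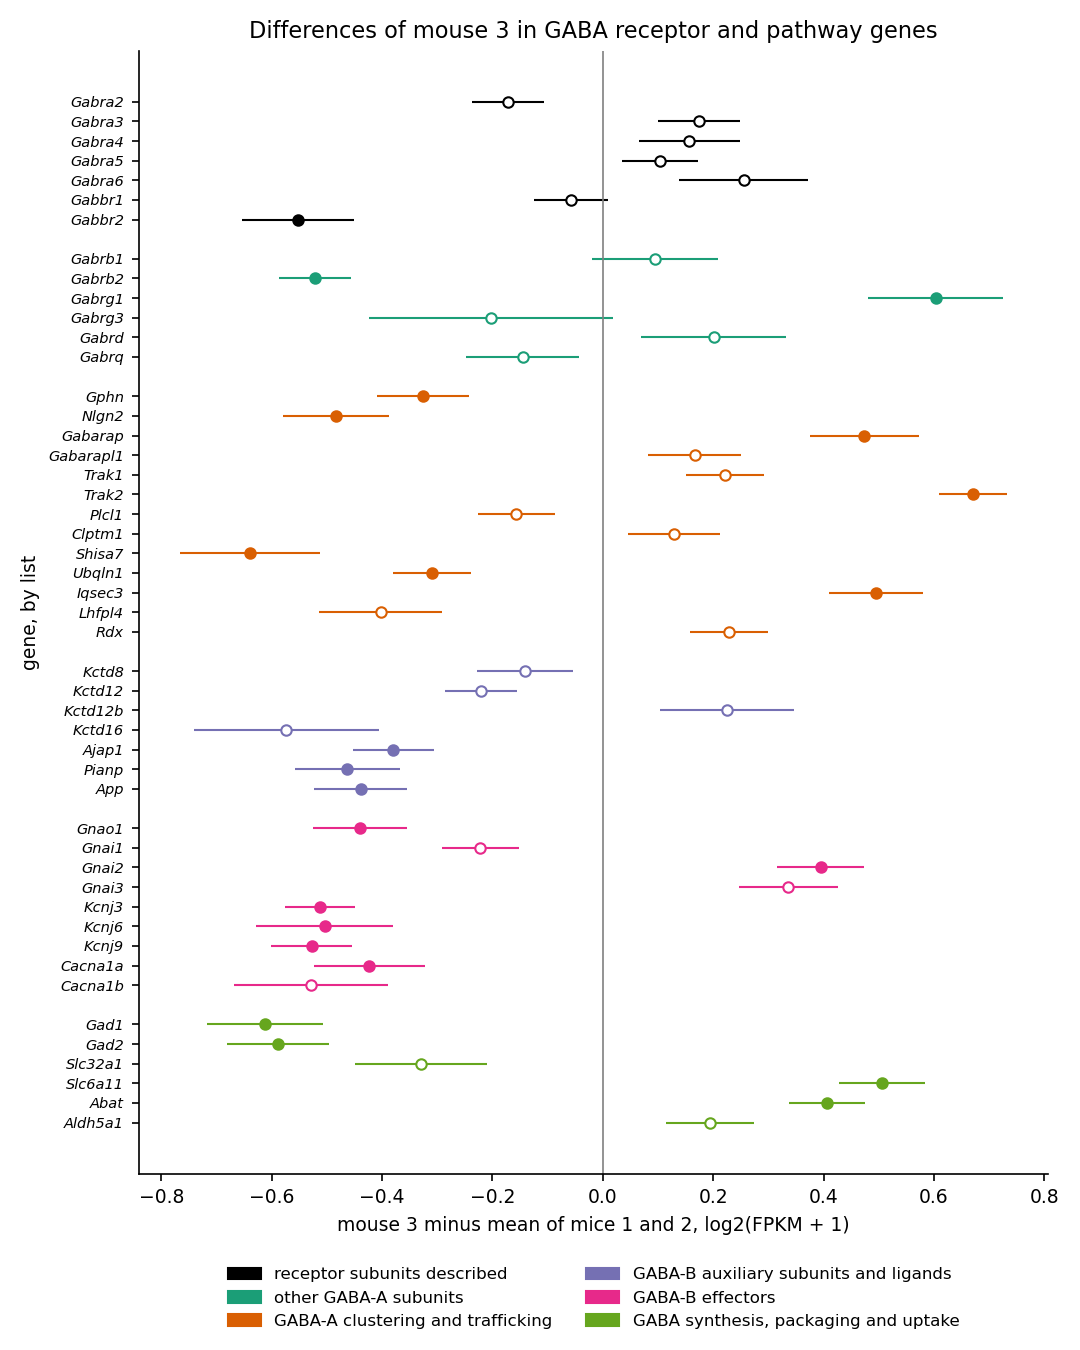
Difference of mouse 3 from the mean of mice 1 and 2 on the log2(FPKM + 1) scale, with its SE, for the 7 receptor genes (black) and the tested genes of 5 pathway lists (colours). Filled points passed limma's test between the 3 mice; of the 7 genes only Gabbr2, at -0.55, is filled.

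These alpha genes lie beside beta, gamma or related subunit genes on their chromosomes, and levels within such a cluster were unequal. On chromosome 5, Gabrg1 (10.2 ± 2.89 FPKM), Gabra2, Gabra4 and Gabrb1 (14.5 ± 0.980 FPKM) lie within 1386 kb, and both alpha genes exceeded both neighbours. On chromosome 11, Gabra6 lies within 326 kb of sequence with Gabrb2 (45.6 ± 9.13 FPKM), which exceeded it in the mean of the mice. In mouse 3 the order was reversed, with means of 38.4 FPKM for Gabra6 and 35.1 FPKM for Gabrb2. This rested on library 2 (45.0 against 35.7 FPKM), while in library 1 Gabrb2 was the higher (34.6 against 31.8 FPKM). Chromosome 7 holds Gabrg3 (2.50 ± 0.278 FPKM) and the more abundant Gabra5 within 786 kb. The widest contrast among these genes was on the X chromosome, where Gabra3 (31.0 ± 2.51 FPKM) lies between Gabre (0.406 ± 0.0403 FPKM) and Gabrq (1.42 ± 0.144 FPKM) within 585 kb.

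The pathway around the receptors was read from 5 lists of genes, 41 of them tested. Of the 41, 22 passed the limma test between mice (53.7%, against 26.9% of all genes), 15 lower in mouse 3 (36.6%, against 11.9%) and 7 higher (17.1%, against 15.0%). None of the 22 changed sign under TPM, where all 15 lower genes and 1 of the 7 higher genes passed. Under TPM 44.0% of all genes passed, 37.5% with mouse 3 lower. That scale moved the median difference of all genes from 0.02 to -0.26, so lower genes that stayed lower add no separate evidence. Without library 2 of mouse 3, 4 of the 41 passed (9.76%, against 2.77% of all genes): Gabrb2 and Kcnj3, which were lower, and Trak2 and Slc6a11, which were higher. The differences of these 4 genes in that fit were -0.54, -0.57, 0.64 and 0.60, in that order. Mouse 3 then had 1 library, so a lower count there cannot tell smaller differences from the loss of a library. The marker sums of neurons and non-neuronal cells given above differed between the same mice, and their part in these counts was not tested.

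Among 11 other GABA-A subunit genes, 6 were tested and 2 passed, with a median difference of -0.03 against 0.02 for all genes. Gabrb2, a beta subunit of the channel and the most abundant of the 11 genes, was lower in mouse 3, with 34.6 and 35.7 FPKM against 49.4 to 54.5 FPKM in the other libraries (-0.52 ± 0.06, limma adjusted p = 0.00512). Gabrg1, a gamma subunit, was higher, with 11.8 and 15.2 FPKM against 7.83 to 10.2 FPKM (0.60 ± 0.12, limma adjusted p = 0.0204). At the low end, Gabrp and Gabrr3 were listed at 0 in 7 of the 8 libraries.

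Of 13 genes for clustering and trafficking of GABA-A receptors, 7 passed, 4 lower and 3 higher in mouse 3, with a median difference of 0.13 that turned to -0.16 under TPM. The inhibitory scaffold gephyrin (Gphn, -0.33), its partner Nlgn2 (-0.48), the auxiliary subunit Shisa7 (-0.64) and Ubqln1 (-0.31), which stabilises receptors, were lower. Gabarap (0.47), which binds gamma subunits, the transport adaptor Trak2 (0.67) and Iqsec3 (0.50), a partner of gephyrin, were higher. The highest level of the list was that of Gabarapl1 (262 ± 19.8 FPKM), which did not pass.

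Genes of the GABA-B pathway that passed on the FPKM scale were lower in mouse 3 in 8 of 9 cases, against 44.1% of all genes that passed. Under TPM the 6 auxiliary genes and 7 effectors that passed were all lower, against 85.1% of all genes that passed. Without library 2 of mouse 3, Kcnj3 alone of these 9 passed. Of 7 auxiliary subunits and ligands, App (-0.44), Pianp (-0.46) and Ajap1 (-0.38), whose products bind the sushi domains of GABBR1, passed and were lower, and the list's median was -0.38. App, the amyloid precursor, had the highest level with 413 ± 69.0 FPKM, from 436 to 473 FPKM in mice 1 and 2 and at 353 and 315 FPKM in mouse 3. The 4 KCTD genes, whose proteins bind GABBR2, did not pass. Among 10 effectors 9 were tested, and 6 passed with a list median of -0.44. The G protein gene Gnao1 (-0.44), the potassium channel genes Kcnj3 (-0.51), Kcnj6 (-0.50) and Kcnj9 (-0.53) and the calcium channel gene Cacna1a (-0.42) were lower, and Gnai2 (0.39) was higher. Kcnj3 was measured at 17.1 and 18.7 FPKM in mouse 3 against 24.8 to 27.0 FPKM in the other libraries. Gnao1 had the highest level of the effectors at 152 ± 25.2 FPKM.

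Of 6 genes for making, packaging, taking up and breaking down GABA, 4 passed, with a list median of -0.07. Gad1 (-0.61) and Gad2 (-0.59), the enzymes that make GABA in neurons, were lower in mouse 3, while Slc6a11 (0.51), the transporter of astrocytes, and Abat (0.41), which breaks GABA down, were higher. Gad1 had the highest level at 114 ± 26.4 FPKM, with 110 to 141 FPKM in mice 1 and 2 and 92.2 and 76.5 FPKM in mouse 3.

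For each receptor gene, the genes with the most similar pattern were taken as those with the highest Pearson's r of log2(FPKM + 1) over the 8 libraries among the 13001 genes. These are descriptions over few libraries, which share mice and differ in depth. For Gabbr1 they were Zfp592 (r = 0.995) and Herc2 (r = 0.992). Gabbr1 was 125.4 to 126.2 FPKM in 7 libraries and 116.3 FPKM in library 2 of mouse 3, so its r rests largely on that library. Gabra3, Gabra4 and Gabra6 also had values in that library apart from all others, so their r leans on it too. For Gabbr2 the nearest was Bptf (r = 0.995). For Gabra2 they were Zfyve16 (r = 0.979) and Phf20 (r = 0.971), for Gabra3 Rexo2 (r = 0.991) and Wdr74 (r = 0.984), and for Gabra5 Zfp715 (r = 0.979) and Sec11a (r = 0.968). Gabra4 was nearest to Cept1 (r = 0.988) and Ube2d2a (r = 0.986), and Gabra6 to Dynlt3 (r = 0.982) and 2700029M09Rik (r = 0.980).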

How the data were processed

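Total RNA of whole brains went into Kapa mRNA HyperPrep libraries, which were read on a NextSeq500 instrument. The deposited FPKM values, with confidence bounds and a status that was OK for every transcript described, were estimated by the authors per RefSeq transcript in tables of Cufflinks form. The submitters' processing notes name TopHat, Cufflinks and the build mm10, without versions or strand setting. The deposited coverage is a signal per base, and multiplied by transcript length it gave the bases read. FPKM are not counts, so no counting interval was computed.

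FPKM were summed over the transcripts of a gene. Genes whose mean over the mice reached 1 FPKM (13001) were tested with limma 3.58.1 (trend, R 4.3.3) on log2(FPKM + 1), all 3 mice in 1 fit without covariates, as a moderated F-test with Benjamini-Hochberg adjustment, and the script was tested on simulated data. A fold change on this scale understates that of low genes. The p-values measure the spread between libraries of a mouse, which may be technical. A gene's sum is firmer than the estimate for either of its transcripts. Locus starts were shifted by 1 to count from 1, and coding sequences came from GENCODE M21. Named were the 7 genes, of each pathway list the highest gene and those that passed, genes at or near 0, and 2 genes of most similar pattern. Alternatives were a pseudocount of 0.1, no minimum, a minimum of 5 FPKM, TPM, removal of the trend with transcript length, the highest transcript of a gene, the library number as a block and leaving out each library. The genes and lists were chosen with earlier results of these data known. Some genes of these lists, among them a further alpha subunit, and 1 gene of similar pattern are not reported here and enter no list count.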

Additional observations from a re-analysis of the deposited data

Results flagged for a closer look

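In 6 of 11 measures of the receptor genes, library 2 of mouse 3 lay farther from the nearest library than Dixon's 95% limit for 8 samples allows, and chance passes this limit in about 1 of 20 groups. Of the 7 genes 4 passed it in that library, as did 8.20% of all 13001 genes, more than in any other library. The limit takes the 8 libraries as independent samples, although they come from 3 mice. These measures are not independent, since sums and shares hold the same genes. Gabra6 was 45.0 FPKM there while no other library exceeded 33.9 FPKM. Gabra3 was 36.1 FPKM against at most 31.5 FPKM, and Gabra4 was 34.2 FPKM against at most 28.7 FPKM. The 5 alpha genes summed to 173 FPKM, and the histidine class held 54.2% of that sum. Gabbr1 was 116.3 FPKM, below 125.4 FPKM or more elsewhere. No cause was tested.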

How the results depend on the processing

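With the library number as a replicate block, 1 of the 7 genes passed, Gabbr2 at -0.55 (limma adjusted p = 0.0196), and 3385 genes passed in all, 33.7% of them lower in mouse 3. Same-numbered libraries of different mice correlated by 0.00276 to 0.107 in their deviations, so the numbers were not taken as pairs. Under TPM the levels were 361.6 (Gabbr1), 137.4 (Gabbr2), 109.3 (Gabra2), 97.4 (Gabra6), 89.5 (Gabra3), 82.0 (Gabra4) and 57.9 (Gabra5). On that scale 3 receptor genes, 6 of 7 GABA-B auxiliary genes and 1 of the other GABA-A subunits passed, with 44.0% of all genes. The differences of mouse 3 turned to -0.037 for Gabra6, -0.12 for Gabra3, -0.14 for Gabra4 and -0.19 for Gabra5. With the length trend removed, Gabbr1 turned to 0.054 and 1 of the other GABA-A subunits passed, with 22.2% of all genes. With the highest transcript alone, Gabra6 was 29.3 FPKM and its ratio to Gabra3 was 0.941. In that fit 3 clustering and trafficking genes passed, with 21.1% of all genes. Leaving out 1 library at a time, 2.77 to 31.5% of all genes passed. These fits gave 0 to 4 receptor genes, with 0 without library 2 of mouse 3 (2.77% of all genes) and 4 without library 1 of mouse 3 (Gabbr2, Gabra3, Gabra4 and Gabra6, with 30.2% of all genes), differences of 0.013 to 0.50 for Gabra6, 0.07 to 0.28 for Gabra3 and -0.0040 to 0.32 for Gabra4, 1 to 2 other GABA-A subunits, 1 to 8 clustering genes, 0 to 4 GABA-B auxiliary genes, 1 to 9 effectors, 1 to 5 genes of GABA synthesis and uptake, and a Gabra4 to Gabra5 ratio of 1.38 to 1.45. Without library 2 of mouse 3, Gabra4 turned to the lowest of these. In that fit mouse 3 had 1 library, and its difference was -0.36 for Gabbr2 and -0.23 for Gabra2. Fewer genes that pass in it cannot tell smaller differences from the loss of a library. No other tool was run. Without library 3 of mouse 1 (14.4% of all genes), clustering genes also fell to 3 and other GABA-A subunits to 1. The count fell for auxiliary genes to 1 without library 2 or 3 of mouse 1 and effectors to 3 without library 2 of mouse 1 (14.8% of all genes). Gabbr2 passed in 7 of 8 such fits, with adjusted p from 0.00387 to 0.0830. The cause of these changes was not tested. Values rest on 3 mice, with 1 condition and no counts.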

Other observations

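In the 7 libraries other than library 2 of mouse 3, Gabbr1 ranged from 125.4 to 126.2 FPKM, a CV over libraries of 0.251%. This was the smallest CV of the 13001 genes over these libraries, ahead of Actr3 at 1.49%, with a median of 11.4%. The SD of 0.315 FPKM compares with deposited bounds 2.70 to 3.25 FPKM on either side of each value. The libraries and the gene were singled out after their values were seen, and the cause was not tested.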
